A study of Mus musculus with 5 samples.

Results

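The 10 genes described here encode enzymes that turn cholesterol into bile acids and join these to amino acids in the liver. They are Cyp7a1, Cyp8b1, Cyp27a1, Cyp7b1, Hsd3b7, Akr1d1, Amacr, Acox2, Slc27a5 and Baat. They were taken by gene symbol from the array's probe table, and each had 1 probe set that named no other gene. They are 10 of the 19938 genes that the arrays measured under a single symbol.

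RNA of 5 liver samples from male mice about 10 months old was hybridised to gene expression arrays, 1 array per sample. The 2 control samples were normal liver of genotype Hdac3FL/+ AlbCre+, and the 3 tumour samples were liver tumours of genotype Hdac3FL/- AlbCre+. Both genotypes thus carried Cre recombinase, which the albumin promoter drives in hepatocytes, and 1 floxed allele of the histone deacetylase gene Hdac3. Where Cre has acted, control hepatocytes are left with 1 working copy and Hdac3FL/- hepatocytes with none. Cells without Cre keep 2 working copies in control mice and 1 in Hdac3FL/- mice. Every Hdac3-null sample was tumour and every control was normal tissue, so loss of Hdac3 and tumour formation cannot be told apart. The labels name the samples of each group as biological replicates. The small number of arrays limits the precision.

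Bile acid synthesis starts along either of 2 routes. In the classical route Cyp7a1, the rate-limiting enzyme, hydroxylates cholesterol in the endoplasmic reticulum, and in the alternative route mitochondrial Cyp27a1 acts first and Cyp7b1 follows. Hsd3b7 and Akr1d1 remodel the sterol rings, and Cyp8b1 adds the hydroxyl group that distinguishes cholic acid. Peroxisomal enzymes such as Amacr and Acox2 shorten the side chain. Slc27a5 activates bile acids with coenzyme A and Baat transfers them to taurine or glycine. Bile acids restrain their own synthesis through the nuclear receptor FXR and through an intestinal FGF signal read by Fgfr4 and Klb on hepatocytes.

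Values are log2 expression values as deposited, and a change is the tumour mean minus the control mean on that scale. Array medians lay between 5.66 and 5.77, and the lower quartile of an array, used here as a mark of dim signal, between 4.29 and 4.35. Hdac3 had log2 values of 8.21 and 8.37 in control livers, against 6.78, 6.57 and 6.65 in tumours 1, 2 and 3. It fell by 1.62 (95% confidence interval −1.95 to −1.30; limma adjusted p = 0.00298). The position of its probes relative to the deleted part was not analysed here. The call for Hdac3 was lost without control 2 (adjusted p = 0.0663) and without control 1 (0.0505). Genes called at adjusted p under 0.05 numbered 1117 risen (5.6%) and 989 fallen (4.96%). Of the calls 53.0% were rises, or 42.5% with all arrays brought to the same median.

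Of the 10 enzymes, 5 fell and 0 rose by limma's test, against 4.96% of all genes that fell. With the dimmest 40% of genes left out, the same 5 fell. The number of genes fallen was then 994, against 989 of all genes, so the share among brighter genes was larger. Cyp8b1, Cyp7b1, Hsd3b7, Amacr and Slc27a5 passed, while Cyp7a1, Cyp27a1, Akr1d1, Acox2 and Baat did not. At an unadjusted p under 0.05 the numbers were 8 lower and 0 higher, with Akr1d1 and Acox2 outside, against 12.3% of all genes lower and 12.9% higher. In 8 of the 10 genes all tumours lay below both controls, as they did in 23.1% of all genes. The median change of the 10 was −1.80, and that of all genes tested −0.02. The 10 genes were chosen with earlier results of these data known, so their counts only describe them. These are whole-tissue samples, in which fewer cells of a type and less RNA per cell cannot be told apart.

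**Figure D1:**
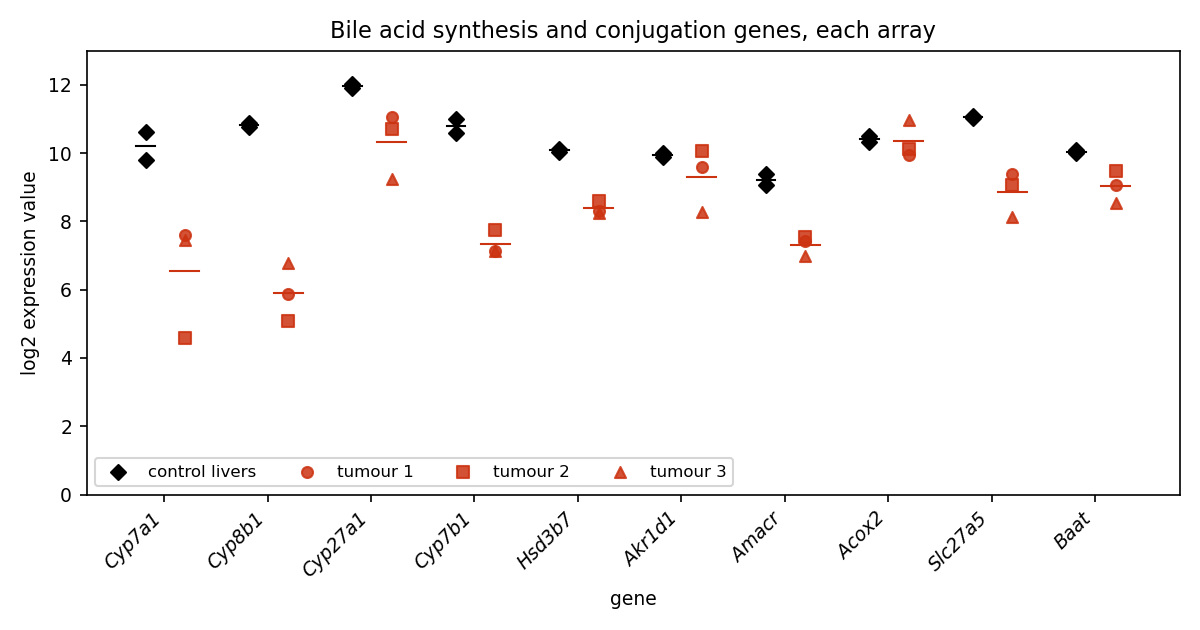
Log2 expression values (vertical axis) of the 10 genes (horizontal axis) on each array. Black diamonds are the 2 control livers, red symbols the 3 tumours, and short lines the group means; tumour and control values overlap in range only for Akr1d1 and Acox2, and Cyp7a1 in tumour 2 stands at 4.57.

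Cyp8b1, which sets the share of cholic acid among the bile acids, had the largest change of the 10. Control livers had log2 values of 10.89 and 10.76, against 5.87, 5.09 and 6.79 in tumours 1, 2 and 3. All tumours were low and the groups stood far apart. Cyp8b1 fell by 4.91 (95% confidence interval −6.04 to −3.78; limma adjusted p = 0.00413), a 30.1-fold lower value (13.7 to 66.0). Among the 19938 genes it ranked 23 by size of fall. The change held its size when either control was left out, but the call did not (adjusted p = 0.0713 without control 1 and 0.0793 without control 2).

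The stretch before the start of Cyp8b1 is shown because this gene changed most, beside those of Hsd3b7, which fell less, and Acox2, whose change was near 0. The sequences are from RefSeq (GRCm38.p6), whose promoter table held 5 of the 10 genes. For Cyp27a1 and Akr1d1 the window before the listed start lies wholly or partly inside the annotated gene and is not shown. Of 2 starts listed for Acox2 the outer is shown. Each run is the 250 bases before the start, 5′ to 3′ on the strand of the gene. Capitals mark matches to 5 motifs searched on both strands, which were chosen after the sequences were seen. These were CAAAGTCCA, a form of the site bound by the hepatocyte factor HNF4A, TATAAA, the TATA box, the nuclear receptor core sites AGGTCA and GGGTCA, and TTATGCAA, a site of the D-box kind bound by Dbp and its relatives.
Cyp8b1 (chr9:121916306-121916555, minus strand): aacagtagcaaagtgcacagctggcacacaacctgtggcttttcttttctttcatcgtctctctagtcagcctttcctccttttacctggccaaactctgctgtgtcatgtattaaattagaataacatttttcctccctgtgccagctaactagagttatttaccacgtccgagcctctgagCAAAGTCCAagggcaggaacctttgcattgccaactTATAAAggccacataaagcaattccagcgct
Hsd3b7 (chr7:127800359-127800608, plus strand): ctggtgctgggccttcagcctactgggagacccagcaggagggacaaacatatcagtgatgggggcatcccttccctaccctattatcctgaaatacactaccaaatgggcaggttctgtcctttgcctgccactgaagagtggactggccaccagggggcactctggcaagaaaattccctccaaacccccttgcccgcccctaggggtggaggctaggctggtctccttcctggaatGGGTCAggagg
Acox2 (chr14:8259020-8259269, minus strand): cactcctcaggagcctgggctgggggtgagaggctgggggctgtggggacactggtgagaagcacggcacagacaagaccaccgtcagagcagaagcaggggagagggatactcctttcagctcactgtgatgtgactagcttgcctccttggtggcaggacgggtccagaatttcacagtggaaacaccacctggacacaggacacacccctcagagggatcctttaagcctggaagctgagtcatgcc

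In the Cyp8b1 run, CAAAGTCCA begins 67 bases before the start and TATAAA 31 bases before it. CAAAGTCCA occurs in 0.384% and TATAAA in 12.4% of the 32851 windows of the same length in the table. The Hsd3b7 run holds GGGTCA 11 bases before the start, a motif present in 11.6% of windows. The Acox2 run holds none of the 5 motifs. In the window of Akr1d1, TTATGCAA begins 8 bases before the listed start (0.694% of windows) and AGGTCA lies on the opposite strand at 210 and 232 bases (14.0% of windows). The window of Cyp27a1 holds none. These are matches of letters and show no binding.

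Cyp7a1, the first enzyme of the classical route, was low in every tumour but uneven among them. Control livers had log2 values of 9.81 and 10.61, against 7.60, 4.57 and 7.45 in tumours 1, 2 and 3. Tumour 2 stood lowest, close to the lower quartile of its array (4.29), so that this value may be near background. The change was −3.67 (95% confidence interval −5.95 to −1.38), which did not pass (limma adjusted p = 0.0620). The range among tumours, 3.03, was wider than that of 99.5% of all genes by rank, and the controls also differed from each other by 0.80. Without tumour 2 the change was smaller, −2.68, and passed (adjusted p = 0.0168).

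Of the alternative route, Cyp7b1 fell evenly and Cyp27a1 did not pass. Cyp7b1, which hydroxylates oxysterols, had log2 values of 10.58 and 11.01 in control livers, against 7.12, 7.74 and 7.13 in tumours 1, 2 and 3. The tumours lay within 0.62 of each other and well below both controls. Cyp7b1 fell by 3.47 (95% confidence interval −4.07 to −2.86; limma adjusted p = 0.002), an 11.1-fold lower value. Its call was the only one of the 5 that held with any array left out (highest adjusted p = 0.0487). Cyp27a1, which oxidises the sterol side chain, had log2 values of 12.04 and 11.92 in control livers, against 11.07, 10.70 and 9.24 in the tumours. All tumours were lower, tumour 3 most. The change of −1.64 (95% confidence interval −2.92 to −0.36) did not pass (limma adjusted p = 0.114), and whether it differed from that of Cyp7b1 was not tested.

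Cyp7b1 is also one of the genes that male mouse liver expresses more than female liver. Of 14 other male-biased genes measured, 7 fell and 0 rose by limma's test (11 and 0 at an unadjusted p under 0.05). Their median change was −2.70, and in 12 all tumours lay below both controls. Among all genes 4.96% fell, 12.3% were lower at an unadjusted p under 0.05, and 23.1% lay below both controls in all tumours. This list was chosen with earlier results of these data known, so its counts only describe it. Whether the fall of Cyp7b1 is linked to those of the male-biased genes was not tested. The 4 with the smallest p were Slco1a1, Hsd3b5, Mup21 and Elovl3, with changes of −7.14, −6.01, −6.62 and −5.56. Slco1a1, Hsd3b5 and Elovl3 lay below the lower quartile of the array in every tumour, and Mup21 in tumour 1, so that these falls may be larger than measured. Probes of the Mup genes can bind near-identical family members, so the Mup value is uncertain.

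The 2 ring enzymes differed in outcome, Hsd3b7 passing and Akr1d1 not. Hsd3b7, which oxidises the steroid nucleus after the first hydroxylation, had log2 values of 10.13 and 10.03 in control livers, against 8.30, 8.61 and 8.24 in tumours 1, 2 and 3. The tumours were close together and all below the controls. Hsd3b7 fell by 1.70 (95% confidence interval −2.08 to −1.31; limma adjusted p = 0.00405). Akr1d1, a reductase that also acts on the rings, had log2 values of 9.88 and 10.01 in control livers, against 9.60, 10.08 and 8.27 in the tumours. Tumour 2 lay above both controls and tumour 3 far below, so the groups overlapped. The change was −0.63 (95% confidence interval −1.87 to 0.62; limma adjusted p = 0.524), an interval that still allows a fall of the size seen in Hsd3b7. The change was −0.10 without tumour 3 and −1.01 without tumour 2. The difference between these changes was not tested.

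Of the 2 peroxisomal genes of side chain shortening, Amacr fell and Acox2 did not pass. Amacr, the racemase that prepares the branched side chain for oxidation, had log2 values of 9.38 and 9.07 in control livers, against 7.42, 7.53 and 6.99 in tumours 1, 2 and 3. All tumours lay below both controls. Amacr fell by 1.91 (95% confidence interval −2.42 to −1.41; limma adjusted p = 0.00576). Acox2, the oxidase that takes the next step, had log2 values of 10.51 and 10.33 in control livers, against 9.96, 10.13 and 10.98 in the tumours. Tumour 3 was the highest of all 5 arrays, while tumours 1 and 2 were the lowest. The change of −0.06 had an interval from −0.83 to 0.70 (limma adjusted p = 0.939), and its sign turned with quantile normalisation repeated (0.076). Whether Amacr and Acox2 differed in change was not tested.

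In conjugation, Slc27a5 fell and Baat did not pass. Slc27a5, the bile acid coenzyme A ligase, had log2 values of 11.08 and 11.02 in control livers, against 9.40, 9.08 and 8.13 in tumours 1, 2 and 3. The controls were nearly equal and all tumours lower, tumour 3 most. Slc27a5 fell by 2.18 (95% confidence interval −3.08 to −1.28; limma adjusted p = 0.0203), a call that was also lost without tumour 2 (adjusted p = 0.0501). Baat, the amino acid transferase, had log2 values of 10.00 and 10.08 in control livers, against 9.08, 9.48 and 8.53 in the tumours. All tumours were lower, by 0.56 to 1.51. The change of −1.01 (95% confidence interval −1.69 to −0.33) did not pass (limma adjusted p = 0.0768).

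**Figure D2:**
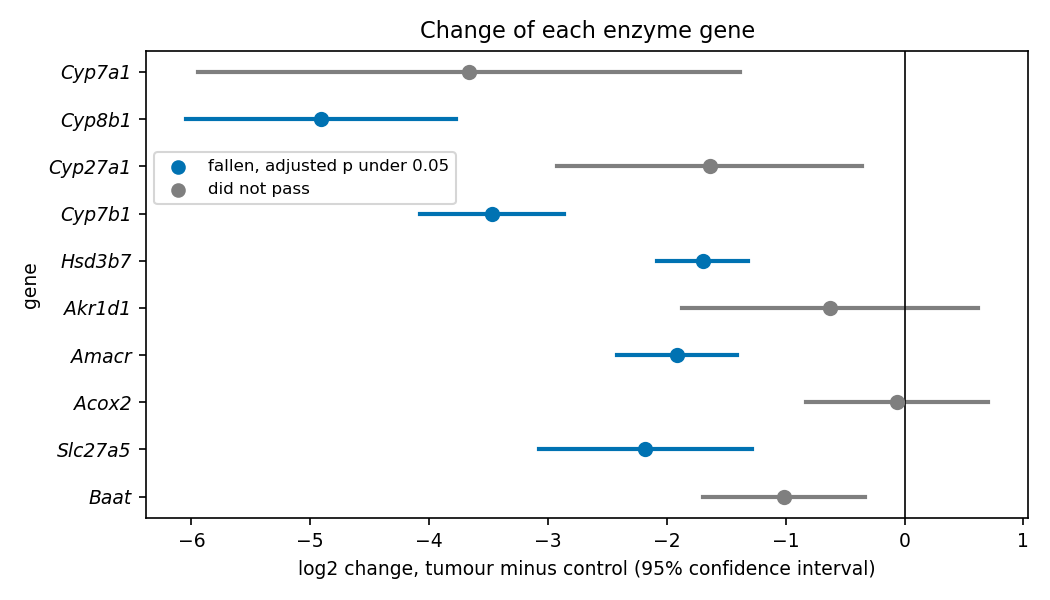
Change of each gene (vertical axis) as tumour minus control on the log2 scale (horizontal axis), with points for the fitted change and lines for the 95% confidence interval. Blue genes fell at adjusted p under 0.05 and grey genes did not pass; the changes run from −4.91 for Cyp8b1 to −0.06 for Acox2.

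Whether pairs of enzymes changed by different amounts was asked from the difference of their log2 values within each array, in 4 pairs. An exact two-sided permutation test of 2 arrays against 3 cannot give a p below 0.1, so none could pass. Cyp7a1, the first enzyme of the classical route, and Cyp7b1, the hydroxylase that follows Cyp27a1 in the alternative route, differed in change by −0.20 (exact permutation p = 1, adjusted p = 1). Cyp7a1 minus Cyp7b1 was −0.77 and −0.41 in control livers, against 0.48, −3.16 and 0.32 in tumours 1, 2 and 3, and without tumour 2 the difference in change was 0.99. Tumour 2 thus set its sign. The change of Cyp7a1 minus that of Cyp8b1 was 1.24, and minus that of Cyp27a1 it was −2.03 (exact permutation p = 0.3 and adjusted p = 0.4 for each).

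Slc27a5 minus Baat was 1.07 and 0.94 in the controls and 0.32, −0.40 and −0.40 in the tumours. All tumours lay below both controls in this pair, and the change of Slc27a5 minus that of Baat was −1.17 (exact permutation p = 0.2, adjusted p = 0.4).

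The tumours were not ordered alike from gene to gene. Tumour 3 had the lowest of the tumour values in 6 of the 10 genes, Cyp27a1, Hsd3b7, Akr1d1, Amacr, Slc27a5 and Baat, and was lowest in 28.4% of all genes. Tumour 2 was lowest in Cyp7a1 and Cyp8b1, and highest in 5 genes, Cyp7b1, Hsd3b7, Akr1d1, Amacr and Baat. Among all 19938 genes it was highest in 5197. Tumour 1 was lowest in Cyp7b1 and Acox2. In Cyp7b1 and in Hsd3b7 tumours 1 and 3 lay next to each other. Median differences from the control mean over the 10 genes were −1.72, −1.58 and −2.49 in tumours 1, 2 and 3. For all genes they were −0.04, −0.04 and 0.03.

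**Figure D3:**
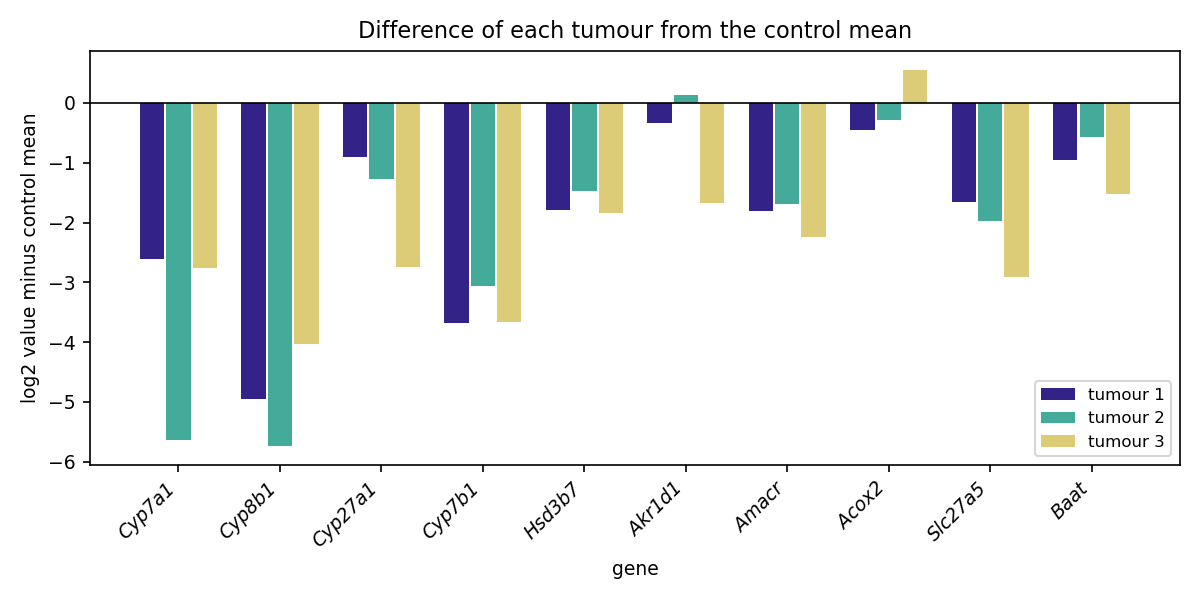
Log2 value of each tumour minus the control mean (vertical axis) for each gene (horizontal axis), with 1 bar per tumour. Tumour 2 reaches −5.63 in Cyp7a1 and −5.74 in Cyp8b1, while tumour 3 is lowest in 6 genes and stands above 0 in Acox2 (0.56).

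By the compartment in which the enzymes are known to work, 4 of the 5 of the endoplasmic reticulum fell (Cyp8b1, Cyp7b1, Hsd3b7 and Slc27a5, with Cyp7a1 not passing), with a median change of −3.47. Of the 3 peroxisomal ones 1 fell, Amacr, with a median of −1.01 over the 3. Mitochondrial Cyp27a1 and cytosolic Akr1d1 did not pass. Among all genes 4.96% fell. Baat and Cyp27a1 did not pass, although all tumours lay below both controls in each. The compartments were set against each other after the values were known, and their difference was not tested.

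The calls depended strongly on having both controls. Without control 1 or without control 2 only Cyp7b1 of the 10 was called fallen, against 0.266% and 0.231% of all genes. Without tumour 2, 6 were called fallen (2.82% of all genes), with Cyp7a1 and Baat gained and Slc27a5 lost. Without tumour 3, 8 were called (6.29%), and at a threshold of 0.1 with all arrays 7 were (7.94%), Cyp7a1 and Baat being the ones added.

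Of 13 other enzymes and carriers of the pathway measured, 1 fell, Stard5, and 0 rose by limma's test (4 and 0 at an unadjusted p under 0.05). Their median change was −0.43. Among all genes 4.96% fell, and 12.3% were lower at an unadjusted p under 0.05. Stard5, a sterol-binding protein, fell by 0.80 (limma adjusted p = 0.0229), a call lost without either control and without tumour 2 (0.058). Without tumour 1 or without tumour 2 the list had 2 called fallen. Abcd3, a peroxisomal importer of bile acid precursors, stood at −0.69 and Hsd17b4, the bifunctional enzyme after Acox2, at −0.62, and Cyp46a1, the cholesterol hydroxylase of brain, at −0.70; none passed. Fdx1, which passes electrons to Cyp27a1, was lower in all tumours (8.84, 9.49 and 8.53) than in the controls (10.01 and 9.95) but did not pass (limma adjusted p = 0.0778).

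Of 14 genes of hepatocyte uptake and export measured, 2 rose and 2 fell, against 5.6% and 4.96% of all genes. The other 10 did not pass, and not all of the 14 are for bile acids. The median change of the 14 was −0.86. At an unadjusted p under 0.05, 8 were lower and 3 higher, against 12.3% and 12.9% of all genes. The number fallen was 6 without tumour 1, 7 without tumour 3, 8 with array weights, with the replicate block or at a threshold of 0.1, 4 with the dimmest 40% of genes left out, and 1 without either control, while the number risen was 1 without either control and otherwise 2 or 3. Abcc4, an exporter on the blood side of the hepatocyte, had log2 values of 6.06 and 6.15 in control livers, against 10.30, 10.44 and 10.26 in tumours 1, 2 and 3. It rose by 4.23 (limma adjusted p = 0.000156), with the tumours close together and far above the controls. Abcb4, which moves phospholipid into bile, rose by 1.01, and Abcc2, a canalicular exporter of conjugates, fell by 0.80. Among those that did not pass, Slc10a1 stood at −1.69 (limma adjusted p = 0.0588), Abcb11 at −1.23 (0.0977) and Slco1b2 at −5.42 (0.0711). Slc51b stood at 1.90 (0.0527). All tumours lay below both controls in Slc10a1, Abcb11 and Slco1b2, and above them in Slc51b. These 4 were named after their values were seen. The uptake carrier Slco1a1 fell by 7.14 to between 2.73 and 2.98, below the lower quartile of each tumour array, so that its fall may be larger than measured.

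Among regulators of the pathway, 6 of 17 measured genes fell and 0 rose by limma's test (12 and 0 at an unadjusted p under 0.05). Their median change was −0.92. Of all genes 4.96% fell, and 12.3% were lower at an unadjusted p under 0.05. Dbp, a clock output factor, fell by 1.88, Foxa2, a hepatocyte pioneer factor, by 0.98, Nr1h3, the oxysterol receptor LXR alpha, by 0.93 and Prox1 by 0.74. Nr1h4, which encodes FXR, fell by 1.38, and Nr1i3, which encodes the receptor CAR, by 4.51. Hnf4a stood at −0.20 (95% confidence interval −0.54 to 0.15; limma adjusted p = 0.463) and Nr0b2, the repressor that FXR induces, at −1.18 (adjusted p = 0.162). Of these, Nr1h4, Nr1i3, Hnf4a and Nr0b2 were named after their values were seen. The sources used here do not state the time of day at collection.

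Of the FGF signal, the receptor gene Fgfr4 had log2 values of 8.76 and 8.53 in control livers, against 7.69, 7.02 and 6.41 in tumours 1, 2 and 3. It fell by 1.61 (limma adjusted p = 0.0453), a call that was lost when quantile normalisation was repeated and when tumour 2 was left out. Its partner Klb stood at −0.14, Fgf15 at 0.25 and Fgf21 at 2.68 (limma adjusted p = 0.0598), none of which passed. The FGF signal described above is intestinal, and the arrays measured liver RNA only, so its level was not measured. Fgf21 passed without tumour 1, without tumour 2, with array weights and with the dimmest 40% of genes left out. Of the 12 genes of these carrier, transporter, regulator and FGF lists that were called, Abcc4 and Slco1a1 were the ones that kept their calls without either control (highest adjusted p of the others 0.28 and 0.24). Without tumour 1, Nr1h4 (adjusted p = 0.0660) and Prox1 (0.0602) lost theirs, and Prox1 did so with the replicate block too. Without tumour 2, Stard5, Abcc2, Nr1h3, Nr1i3, Prox1 and Fgfr4 lost theirs.

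**Figure D4:**
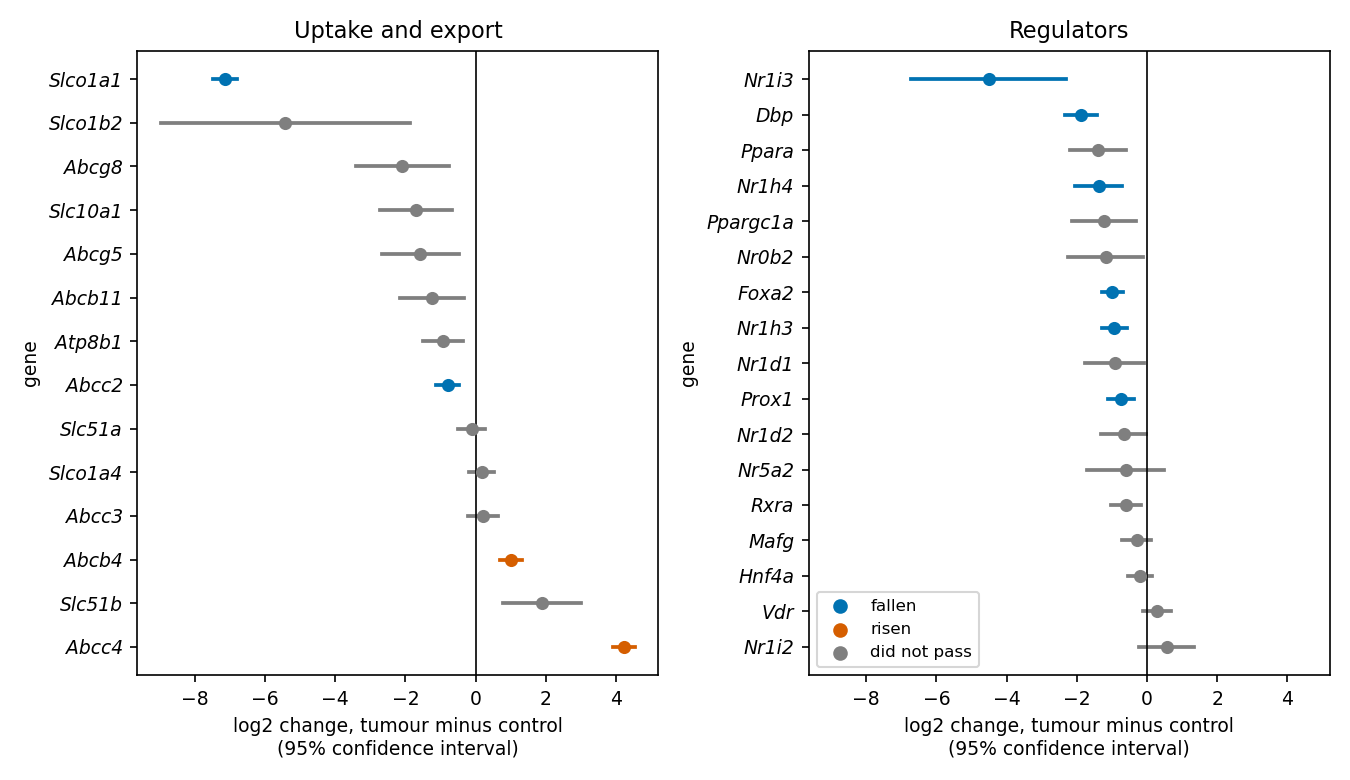
Change as tumour minus control on the log2 scale (horizontal axis) of hepatocyte uptake and export genes and of regulators (vertical axes), with 95% confidence intervals. Orange genes rose, blue genes fell and grey genes did not pass; 2 transporters rose and 2 fell, and 6 regulators fell.

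Markers of hepatocytes were present at high values on all arrays. Of 13 measured, 2 fell, Apoh by 1.22 and Ttr by 0.71, and 0 rose by limma's test (3 lower and 1 higher at an unadjusted p under 0.05), with a median of −0.12 and Alb at −0.12. The call for Ttr was lost in 6 of 13 alternatives, which were repeated quantile normalisation, the replicate block, and leaving out control 1, control 2, tumour 1 or tumour 2. The call for Apoh was lost without either control and without tumour 2. Their values summed after unlogging were 82981 to 84576 in the controls and 67603 to 77537 in the tumours. Hpx (0.43) and Apoa2 (−0.45) did not pass. Among all genes 4.96% fell, and at an unadjusted p under 0.05, 12.3% were lower and 12.9% higher.

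Of 19 macrophage markers measured, 11 rose, 1 fell and 7 did not pass, with a median of 2.26. Among all genes 5.6% rose and 4.96% fell. C1qc rose by 3.33, Cd68 by 3.02 and Mpeg1 by 2.47, and Cd163 fell by 2.20. Clec4f, Vsig4, Cd5l and Marco, markers of resident liver macrophages, did not pass and split by tumour. Cd163 did not split, with 4.5, 4.3 and 4.9 in tumours 1, 2 and 3 against 6.5 and 7.0 in the controls. Clec4f had log2 values of 7.51 and 7.87 in control livers, against 9.28, 6.37 and 5.03 in tumours 1, 2 and 3, and Vsig4 (−0.20), Cd5l (0.36) and Marco (0.23) were also highest in tumour 1. These 4 were named after their values were seen. Without control 1 the number risen was 0 and without control 2 it was 1, with 0 fallen in both cases. The summed values of the 19 markers were 1942 to 2596 in the controls and 7559 to 13646 in the tumours.

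Markers of dividing cells rose in 8 of 13 cases (5.6% of all genes rose), including Ect2, Cdk1, Prc1 and Tpx2, with 0 fallen. The number risen was 3 without tumour 2, 12 without tumour 1 and 0 without either control. Their sums were 465 to 498 in the controls and 914 to 1753 in the tumours. Of 13 stellate cell and fibroblast markers Acta2 rose, and Col1a1, Col1a2 and Pdgfrb did not pass. The call for Acta2 was lost without either control, and 2 were called without tumour 1 and 3 without tumour 3. Their sums were 2278 to 2329 in the controls and 1176 to 4582 in the tumours. Of 11 endothelial markers Plvap rose, and Pecam1, Stab2 and Clec4g did not pass, with sums of 2679 to 2978 in the controls and 1333 to 4772 in the tumours. The call for Plvap was lost in 6 of 13 alternatives, which were repeated quantile normalisation, a common median, and leaving out control 1, control 2, tumour 1 or tumour 2, while Pecam1 passed in 5 of the 13. In these last 2 lists the summed tumour values lay on both sides of the controls. Median differences from the control mean in tumours 1, 2 and 3 were 1.56, 0.65 and −0.06 for stellate cell and fibroblast markers. For endothelial markers they were 0.67, 0.17 and −0.54.

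None of 9 cholangiocyte markers passed limma's test (0 lower and 4 higher at an unadjusted p under 0.05; Krt19, Krt7, Cldn4 and Muc1 had the smallest p), and 2 rose without tumour 3. Their sums were 283 to 287 in the controls and 476 to 536 in the tumours, with Cftr under the lower quartile on every array. Of 13 neutrophil and lymphocyte markers 0 passed (0 lower and 3 higher at an unadjusted p under 0.05), the smallest p being those of Cd3g, Cd8a, Cd79b and Cd3e, and 3 rose without tumour 3. Their sums were 325 to 354 and 442 to 1071, with Ly6g, Cd79a and Ms4a1 under the lower quartile on every array. At an unadjusted p under 0.05, 12.3% of all genes were lower and 12.9% higher. The part of cells other than hepatocytes in the changes of the 10 enzymes was not tested.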

How the data were processed

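The authors deposited log2 values in 1 table. The submitters' processing notes name the tools GCOS and RMA and give no version. RMA corrects background, normalises by quantiles and summarises probes, which compresses low values. The platform's probe table gave 1 symbol to 21789 of 28853 probe sets, several to 1621 and none to 5443, and only the first kind was used. Per gene the probe set with the highest mean was kept. Tumour minus control was fitted over all 19938 genes with lmFit and eBayes of limma 3.58.1 (R 4.3.3; 3 residual and 2.98 prior degrees of freedom), without covariates or a filter. P-values are two-sided and adjusted by Benjamini-Hochberg over all genes, with a threshold of 0.05. Pairs used an exact permutation test in Python 3.11.15, adjusted over 4 pairs. The fit was tested on simulated data. The members and gene lists were chosen with earlier results of these data known. The text names the 10 members, Hdac3 and up to 4 genes of each other list with the smallest p, unless it says otherwise. List entries without a single-symbol probe set, such as Fdxr and Por, were left out. The labels give no batch. The table held 0 columns of other samples. Alternatives were repeated quantile normalisation, a common median, leaving out the dimmest 40% of genes, other probe set rules, a variance trend, array weights, a replicate block, a threshold of 0.1 and leaving out each array; a lone control was then assumed to vary like the tumours.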

Additional observations from a re-analysis of the deposited data

How the results depend on the processing

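Over the 10 enzymes and 13 alternatives, 106 of 130 values kept direction and side of the threshold, 9 calls were lost, 11 were gained and 4 changed sign. The lost calls were those of Cyp8b1, Hsd3b7, Amacr and Slc27a5 without either control and of Slc27a5 without tumour 2. The number of enzymes fallen was 8 with array weights and 8 with the replicate block, where Cyp7a1, Cyp27a1 and Baat were added, and ran from 1 to 8 when single arrays were left out. The number risen was 0 throughout. All genes called numbered 3252 with array weights, 3326 at a threshold of 0.1, 2376 with the replicate block, and from 108 to 2719 when single arrays were left out. The replicate numbers showed no pairing over all genes: deviations from the group means correlated at 0.0039 and −0.0129 between same-numbered arrays. With 2 controls, the deviations of the controls mirror each other, so this does not settle whether same-numbered arrays share a source. Only tumour 3 bore replicate number 3, so the replicate block gave the same changes as leaving out tumour 3. These alternatives are thus not separate. The change of Acox2 was 0.076 with quantile normalisation repeated and ran from −0.37 to 0.14 when arrays were left out, that of Klb from −0.36 to 0.070. The difference in change of Cyp7a1 and Cyp7b1 ran from −0.83 to 0.99, turning sign without tumour 2. The causes were not tested. With 2 controls and 3 tumours, precision rests on the spread that limma shares between genes, and cell type makeup and scan date were not used here.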
